A study of Mus musculus with 4 samples.

Results

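A set of 10 genes that encode regulators of alternative splicing were examined in a map of the RNAs bound by DHX9, a helicase that unwinds double-stranded RNA and RNA-DNA hybrids. These are Qk, Msi1, Msi2, Celf1, Celf2, Mbnl1, Mbnl2, Rbfox2, Ptbp2 and Nova1. The genes were selected by name with the peak counts of these data known, so their counts are a description. Their peaks were chosen by position: the midpoint had to lie in the RefSeq span of the gene, or the peak had to lie on the minus strand of chromosome 17 between 10196881 and 10200133, just outside Qk. This rule took 484 of the 43106 peaks of the list (1.12%), 472 of them in the genes and 12 beside Qk.

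The map was made by FLASH, which crosslinks protein to RNA in cells with ultraviolet light, pulls the protein down and reads the attached RNA, strand included. The cells were neural progenitor cells differentiated from WT26, a male mouse embryonic stem cell line of the strain C57BL/6x129sV, and kept in N2B27 medium with EGF and FGF2. Both groups, the DHX9 antibody (DHX9-Rb) and rabbit IgG (IgG-Rb), came from this 1 line, with no treatment named and with 2 biological replicate libraries each (A and B). The data were 1 peak list for the 4 libraries together, with no count, score or value per library, so no replicate error, depth or test can be given for any number below. RNA levels were not measured here. A count of 0 means that no peak was called, and low expression and low binding by DHX9 cannot be told apart. The label of the cells can be set only against peaks. Among genes of neural progenitors and radial glia, Slc1a3 and Ptprz1 held 122 and 64 peaks, and Sox2, Pax6 and Nes held 0. These peaks thus do not settle the label.

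Alternative splicing joins exons of a pre-mRNA in different combinations, and RNA-binding proteins that sit on introns near an exon promote or block its use. Qk encodes quaking, a STAR family protein with a KH domain that binds ACUAA-like sites and is known for its part in myelination and in neural progenitors. Musashi proteins (Msi1, Msi2) mark neural stem cells and are best known as regulators of translation. CELF and MBNL proteins act on many of the same exons, often in opposite directions. Rbfox2 binds GCAUG, Ptbp2 is the neural relative of the splicing repressor Ptbp1, and Nova1 is a KH domain protein of neurons. The peaks described here lie on the RNAs transcribed from these genes and say nothing of where the encoded proteins bind.

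Of the 10 genes, 8 held at least 1 peak and 7 held at least 10. Among all 21900 protein-coding genes the shares were 18.9% and 4.83%. Long genes carried peaks more often, and these genes are long. Of the 7 members in the longest length decile (Qk, Msi2, Celf2, Mbnl1, Mbnl2, Rbfox2 and Nova1), 6 held a peak and 5 held at least 10, where 39.7% and 14.4% of the 2190 genes of that decile did. Of the 3 members in the next decile (Msi1, Celf1 and Ptbp2), 2 held a peak, beside 35.2% of its genes. Nothing is read from these shares, because the members were picked with their counts in view.

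**Figure D1:**
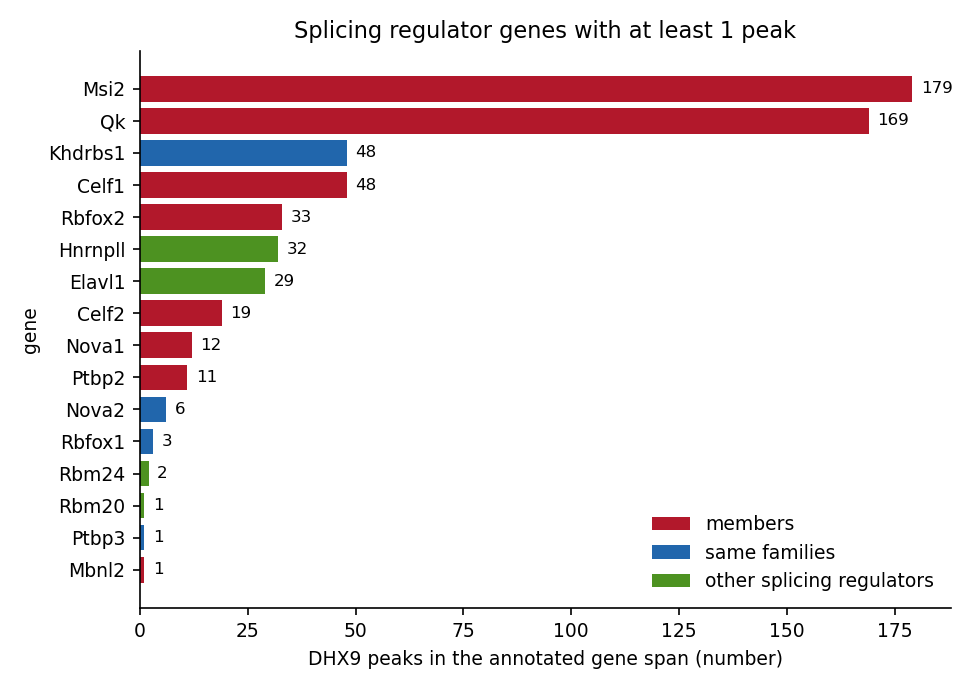
Number of DHX9 peaks (x axis) in each member or related gene that held at least 1 (y axis), with members in red, genes of the same families in blue and other splicing regulators in green. Msi2 (179) and Qk (169) stand above the other genes, the next of which are Celf1 and Khdrbs1 with 48 each.

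Msi2 with 179 peaks and Qk with 169 together held 348 of the 472 (73.7%). Celf1 followed with 48, Rbfox2 with 33, Celf2 with 19, Nova1 with 12, Ptbp2 with 11 and Mbnl2 with 1. Msi1 and Mbnl1 held none. By number of peaks, Msi2 ranked 16 and Qk 18 among the 4133 protein-coding genes with a peak, and Celf1 ranked 141. Per kb of span the order changed. Qk had 1.497 peaks per kb and ranked 40 of the 1057 genes with at least 10 peaks, whose median was 0.365 per kb (lower and upper quartiles 0.175 and 0.679). Celf1 (0.606) and Msi2 (0.472) lay between the median and the upper quartile. Ptbp2 (0.167), Rbfox2 (0.144), Nova1 (0.0987) and Celf2 (0.0222) lay below the lower quartile, and Celf2 ranked 1045 of 1057.

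**Figure D2:**
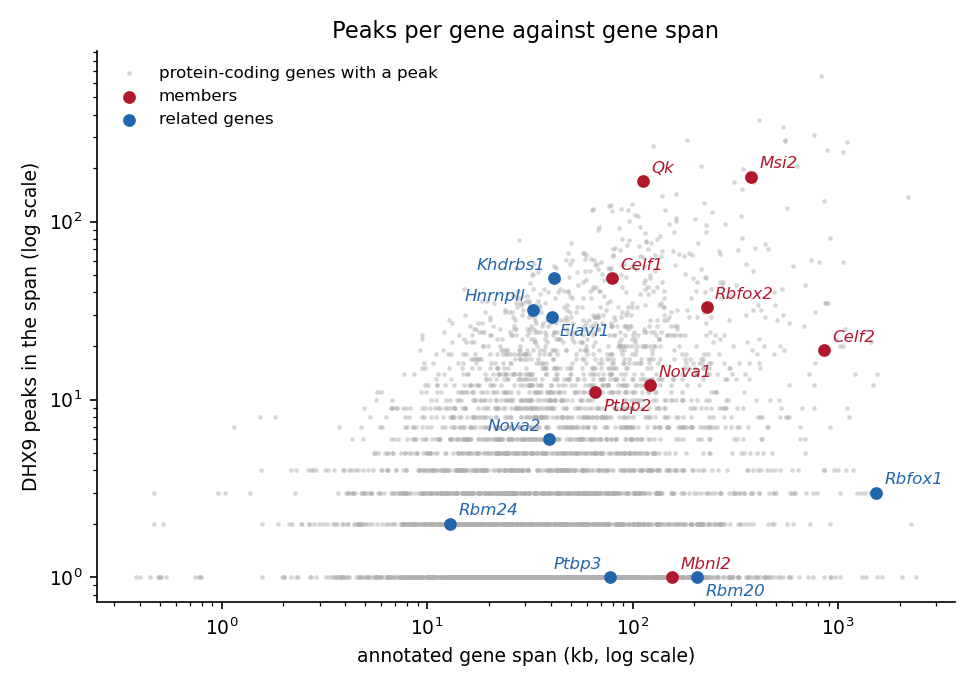
Number of peaks (y axis, log scale) against annotated gene span in kb (x axis, log scale) for the 4133 protein-coding genes with a peak (grey), with members in red and related genes in blue. Qk (169 peaks, 112.9 kb) lies near the upper edge of the genes of its span, and Celf2 (19 peaks, 856.6 kb) lies well below it; Msi1 and Mbnl1, with 0 peaks, cannot be drawn.

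Some sequence helps to place these peaks. The start-site windows of Qk and Msi2 are shown because these members held the most peaks. Every peak of either gene lies downstream of the windows and none lies in them. The same held for Celf1, Mbnl2, Ptbp2 and Nova1, and no window of Celf2 held a peak. Each window runs from 250 bases before to 50 bases after the start, in the sense of the gene. The transcribed 50 bases are in capitals (RefSeq, GRCm38.p6). Msi2 has 3 listed start sites close together, at 88718277, 88718267 and 88718229, and the window of the first is shown.

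Qk, chr17:10319312-10319611, minus strand: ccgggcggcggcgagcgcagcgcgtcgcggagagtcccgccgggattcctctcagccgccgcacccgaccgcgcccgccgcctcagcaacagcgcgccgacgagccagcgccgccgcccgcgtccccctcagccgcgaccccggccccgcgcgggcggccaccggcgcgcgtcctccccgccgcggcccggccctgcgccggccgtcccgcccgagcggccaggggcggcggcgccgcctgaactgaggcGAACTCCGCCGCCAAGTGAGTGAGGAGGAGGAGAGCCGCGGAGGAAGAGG

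Msi2, chr11:88718228-88718527, minus strand: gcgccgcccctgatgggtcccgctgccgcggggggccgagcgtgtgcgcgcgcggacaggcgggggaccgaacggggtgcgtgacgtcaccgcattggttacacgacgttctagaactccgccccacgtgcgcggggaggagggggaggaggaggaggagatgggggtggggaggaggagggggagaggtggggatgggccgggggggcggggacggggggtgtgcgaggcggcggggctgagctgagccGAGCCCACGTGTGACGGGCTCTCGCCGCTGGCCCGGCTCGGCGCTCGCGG

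Both windows shown were rich in G and C. The Qk window was 81.7% G or C and held 57 CG dinucleotides, as many as or more than which were found in 0.152% of the 32851 windows of the table. The Msi2 window shown was 76.3% G or C and held 39, a number reached by 4.45% of windows. The median window was 52.7% G or C and held 7. The stretch before the first peak was short in Qk and long in Msi2. The nearest peak of Qk began 492 bases downstream of the start, and its midpoint lay 0.563 kb downstream. The midpoint of the nearest peak of Msi2 lay 10.3 kb downstream.

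The start-site table also covered part of 1 peak, in Rbfox2. This peak (chr15:77084343-77084459, minus strand, 117 bases) overlaps the window of the noncoding gene 1700109K24Rik. That gene lies inside the span of Rbfox2 and is annotated on the plus strand, opposite to the peak. The 105 bases of the peak within the window are given below on the strand of the peak, as the only stretch of a member's peak that could be read.

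Rbfox2, chr15:77084343-77084447, minus strand: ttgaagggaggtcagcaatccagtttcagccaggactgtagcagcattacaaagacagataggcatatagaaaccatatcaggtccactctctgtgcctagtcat

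This stretch was 45.7% G or C and held 0 CG dinucleotides. It says nothing of the other peaks, whose sequence was not read.

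The peaks of each gene lay on a single strand. In no gene were both strands represented, so all 472 peaks were on the majority strand (95% Clopper-Pearson interval from 99.2%, which covers counting error only and takes peaks as independent). The majority strand was defined from these same peaks, so the 1 peak of Mbnl2 is on it by definition. Peaks of a gene can also share a transcript, so the interval is no measure of spread between genes or replicates. For the 8 members whose strand the table gave, all 439 peaks were on the gene's own strand. Among protein-coding genes with a strand in the table, 30263 of 30403 peaks in a single gene were on the gene's strand (99.5%), so the members were like the rest of the list in this respect. The table gave no strand for Msi1 and Rbfox2. The 33 peaks of Rbfox2 were all on the minus strand, including the 2 that also lie in 1700109K24Rik, which the table places on the plus strand.

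Qk is annotated on the minus strand of chromosome 17 from 10206471 to 10319361, a span of 112.9 kb that overlaps no other gene. Its 169 peaks covered 28801 bases, or 25.5% of the span. Counted from the 5′ end in bins of 10% of the span, they numbered 18, 11, 9, 2, 19, 10, 26, 27, 25 and 22. The fullest bins thus lay in the part nearer the 3′ end, and 34.9% of the peaks lay in the first 50% of the span. Over the 840 genes with at least 10 peaks and a strand, the median share in the first 50% was 66.7% (quartiles 41.2% and 85.7%), so Qk lay below the lower quartile. The longest stretch of Qk without a peak was 7.88 kb.

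Within Qk the peaks formed runs, rows of peaks with at most 1000 bases between neighbours. The one with the most held 37 peaks over 15.5 kb, from 84.2 to 99.7 kb downstream of the start, and ranked 55 by number of peaks among the 14200 runs of the list (a run can be a single peak). The next held 26 peaks from 73.7 to 82.9 kb and 20 from 63.7 to 71.8 kb. At the other end, 10 peaks lay between 0.492 and 5.19 kb of the start. Neighbouring midpoints in Qk were 362 bases apart in the median. The median over the 1057 genes was 492 bases, with quartiles of 386 and 731.

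The peaks did not stop at the annotated 3′ end of Qk. On the minus strand, 22 peaks followed within 9.59 kb past the end, from 10196881 to 10206375, in no annotated gene. The selection rule took the 12 farthest of these, which cover 2434 bases of 3.25 kb (74.8%). The 10 nearer ones lie just outside its bounds. The first of them begins 166 bases after the last of the 12, and the 10 cover 2044 bases of 6.34 kb (32.3%). The bounds of the rule fall on the edges of peaks, so these shares are of unlike windows. The gap between the last peak past the end and the first within Qk was 565 bases, so a single run of 11 peaks, 2 past the end and 9 within, spanned the annotated end over 3.78 kb. The crossing depends on the distance allowed between neighbours, for which other values were chosen after the data were seen. With at most 500 bases no run crossed the end, and the run nearest to it held 2 peaks, both past the end. With at most 2000 bases the run across the end held 132 peaks.

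**Figure D3:**
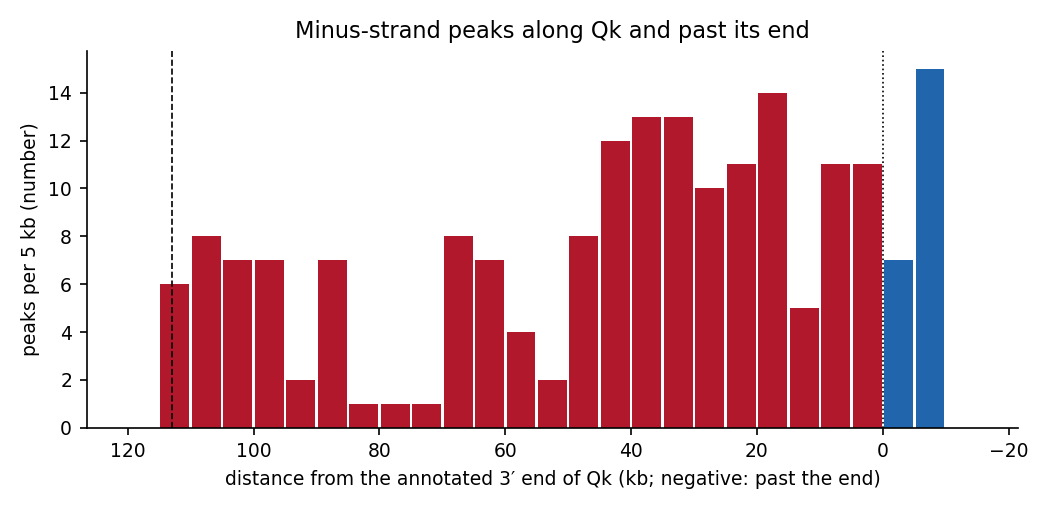
Minus-strand peaks per 5 kb (y axis) against distance from the annotated 3′ end of Qk in kb (x axis, transcription from left to right), with bins within the span in red and past the end in blue; the dashed line marks the start, so that the leftmost filled bin is only partly in the gene, and the dotted line marks the end. Past the end, the bin from 5 to 10 kb holds 15 peaks, among them the 12 that the rule took, and the bin from 0 to 5 kb holds 7. The last 2 bins of the gene hold 11 each, and its fullest bin, from 15 to 20 kb before the end, holds 14.

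Within 10 kb past the end there were 22 peaks, as many as in the last 10 kb of the span (22 peaks, 2.2 per kb). Over the 9.59 kb that reach only to the farthest peak, the density past the end was 2.29 per kb. The peaks past the end had a median length of 178 bases (77 to 370), those in the last 10 kb 166.5 bases, and those of the whole span 151 bases (71 to 417). The 191 peaks in and past Qk stood alone on their part of the chromosome. The nearest other peak was 1432 kb away on the far side of the 3′ end and 1839 kb away on the side of the start. The annotated neighbours held 0 peaks. Past the 3′ end these were the noncoding genes Gm34972 and Gm34799. On the side of the start they were the protein-coding gene Gm46608 and the noncoding genes Cahm, 1700110C19Rik and Gm39565. Gm46608, the nearest to the start, lies on the minus strand like Qk, and its span contains that of Cahm. Cahm lies on the plus strand, head to head with Qk. No peak on either strand lay within 10 kb upstream of Qk.

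Peaks past the annotated end were counted on the gene's strand where they lay in no gene. Of the 840 genes with at least 10 peaks and a strand, 46 (5.48%) had at least 1 within 10 kb. Peaks in a neighbouring gene were left out, so this count also depends on how near the next gene lies. Past the end of Qk the nearest annotated gene, Gm34972, ends at 10146252, beyond the 10 kb. Qk had the most with 22, followed by Ppp2ca with 11, Rnf41 and Zfp207 with 9 each, and Smarca4 with 8. The peaks beside Qk were part of the selection rule, so this rank is a description. Among the other members, Msi2 had 1 such peak, at 88337477 to 88337663 of chromosome 11, which lies 1.72 kb past its end and outside the rule. Celf1, Celf2, Nova1 and Ptbp2 had 0. Whether the RNA past the end of Qk belongs to a longer Qk transcript was not tested.

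**Figure D4:**
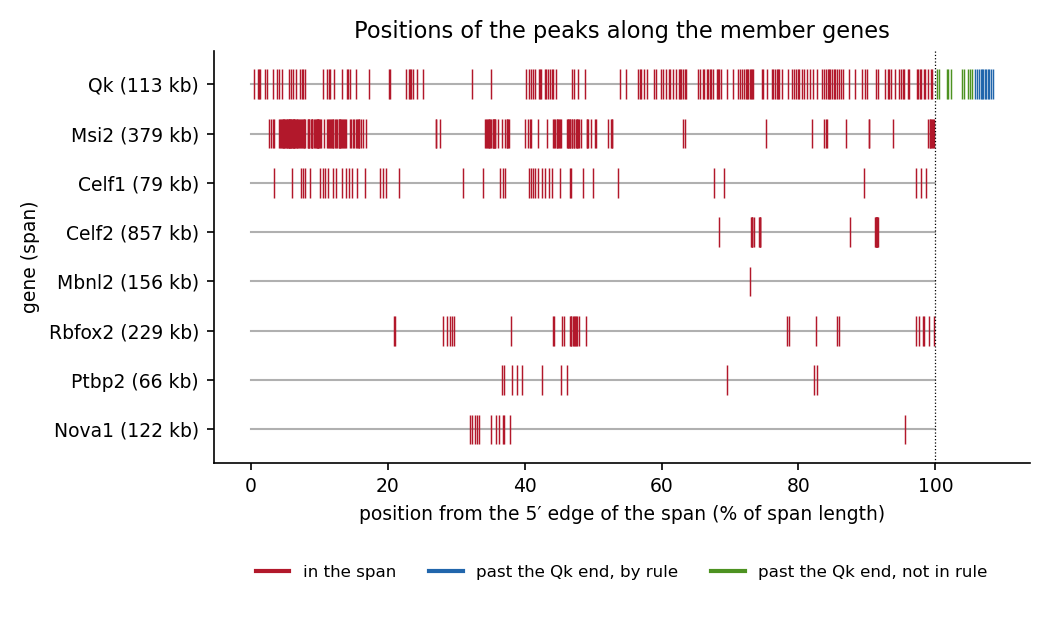
Each vertical line is a peak, placed by its distance from the 5′ edge of the gene span as a percentage of span length (x axis), for the 8 members with a peak (y axis, with span). Peaks of Qk lie along the whole span, with gaps of up to 7.88 kb, and pass its end (blue if taken by the rule, green if not). Those of Msi2 and Celf1 lie mainly in the first 50%, and those of Celf2 begin past 60%.

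Msi2, the musashi gene with peaks, spans 378.9 kb of chromosome 11 (88339382 to 88718306, minus strand). From the 5′ end its 179 peaks numbered 59, 37, 3, 21, 35, 6, 2, 1, 5 and 10 in successive bins. In the first 50% of the span lay 86.6%, above the upper quartile of the 840 genes and on the other side of the median from Qk. The run with the most peaks in any member was here, with 39 peaks over 14.5 kb, from 15.7 to 30.2 kb downstream of the edge of the span (rank 49 of 14200 by number of peaks). A run of 7 peaks closed the gene, between 374.5 and 378.0 kb. The longest stretch without a peak was 44.4 kb, and 8.05% of the span was covered. The pseudogene Gm11510 shared 1 of the peaks, and the microRNA gene Mir378b and the noncoding gene 0610039H22Rik inside Msi2 held 0.

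Its relative Msi1, a gene of neural stem cells, had 0 peaks over an annotated span of 96.6 kb (chromosome 5, 115359059 to 115455698). The noncoding genes 4930401G09Rik and A930005G22Rik that overlap it also had 0. The nearest peaks outside lay 10.4 kb away in Cox6a1 and 22.6 kb away in Sirt4. The musashi genes thus stood at opposite ends of the members by peak count, 179 against 0.

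The CELF genes also differed. Celf1 spans 79.2 kb of chromosome 2 (90940259 to 91019497, plus strand) and held 48 peaks, 9.30% of its span. In successive bins there were 6, 15, 1, 5, 14, 1, 2, 0, 1 and 3. They fell mainly in runs of 17 peaks (4.69 to 13.3 kb from the 5′ edge) and 12 peaks (32.2 to 37.2 kb), and 85.4% lay in the first 50%. The nearest peak to the start site was 2.54 kb downstream.

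Celf2, on the minus strand of the same chromosome (6539694 to 7396341), spans 856.6 kb and held 19 peaks, 0.385% of its span. None lay in the first 585.9 kb. The start-site table gives Celf2 5 start sites, at 7396198, 7396000, 7081302, 6872035 and 6721662. All 19 peaks lay downstream of the first 4, and the nearest was 61.6 kb past the site at 6872035. The site at 6721662 divided them into 10 upstream of it and 9 downstream. The 9 included a run of 8 peaks within 3.79 kb, from 6611310 to 6615096. Which start sites were in use in these cells was not measured, so peaks per kb of the full span may not describe the transcripts present.

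The MBNL genes, whose products are sequestered by CUG repeats in myotonic dystrophy, were nearly free of peaks. Mbnl1 had 0 over 157.2 kb of chromosome 3 (60472559 to 60629750), and the nearest peaks lay 1920 kb below and 1529 kb above it. Mbnl2 had 1 over 156.0 kb of chromosome 14 (120275652 to 120431698). This peak, of 138 bases at 120389331 to 120389468 on the plus strand, lay 113.7 kb from the 5′ edge. In the length decile of both genes 39.7% of genes held a peak.

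Rbfox2 (chromosome 15, 77078990 to 77308434) held 33 peaks over 229.4 kb, which covered 2.84% of it. Taking the strand of its peaks as that of the gene, 66.7% lay in the first 50% of the span, the same as the median of the 840 genes. The run with the most peaks held 9, from 106.8 to 110.1 kb, and the longest stretch without a peak was 67.1 kb. Its last bin of 10% held 6 peaks, among them the one whose sequence is given above. Neighbouring peaks of Rbfox2 were 876 bases apart in the median, more than the upper quartile over genes. Its peaks were the longest of the members in the median, at 179 bases.

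Ptbp2 and Nova1 held the fewest peaks of the members with at least 10. In their length deciles, 11.4% of genes held as many as Ptbp2 or more, and 13.0% as many as Nova1 or more. Ptbp2 (chromosome 3, 119718741 to 119784647, minus strand) had 11 over 65.9 kb, 5 of them in a run between 24.1 and 26.2 kb from the 5′ edge. Its other peaks lay singly or in pairs as far as 54.5 kb, and the median spacing was 655 bases. Nova1 (chromosome 12, 46697895 to 46819480, minus strand) had 12 over 121.6 kb. Of these, 11 lay in the bin from 30 to 40% of the span, in runs of 5 and 6 peaks between 38.9 and 46.2 kb. The remaining peak, at 46703205 to 46703347, lay 116.2 kb from the 5′ edge, and the 69.9 kb between it and the others held none.

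Peak length, which the rule did not use, was like that of the rest of the list. The median over the 472 member peaks was 154 bases (quartiles 122 and 200, shortest 68, longest 474), and over all peaks in protein-coding genes 153 bases (122 and 201). By gene, the medians ran from 138 bases in Mbnl2 (1 peak) and 143 in Nova1 to 179 in Rbfox2. Spacing was also near that of the list, at 450.5 bases in the median of 464 distances in the members and 490 bases over 37943 distances in protein-coding genes. By gene it ran from 362 bases in Qk to 876 in Rbfox2.

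**Figure D5:**
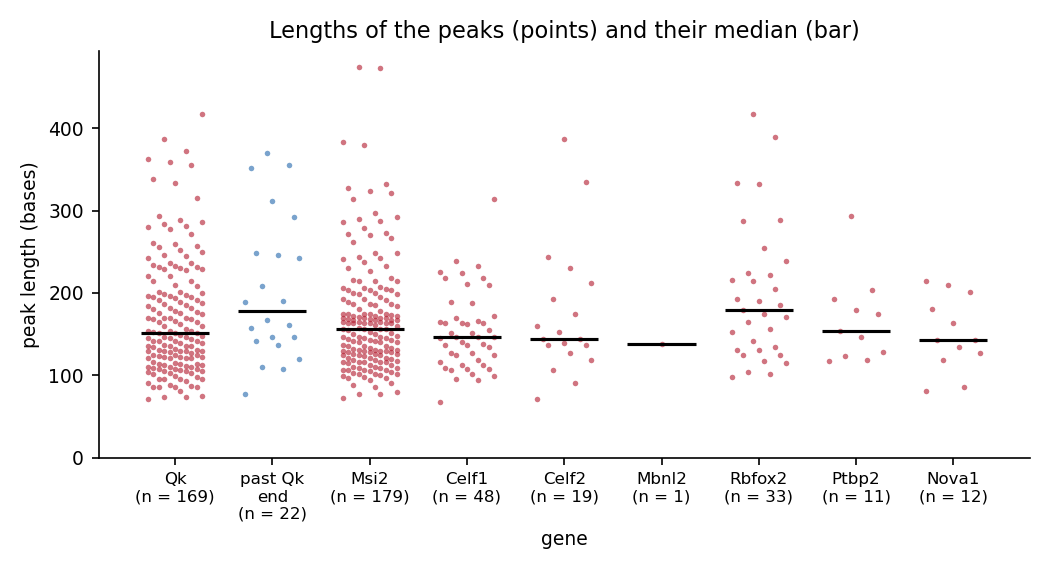
Peak length in bases (y axis) for each member with a peak and for the 22 peaks past the end of Qk (x axis), with each point a peak and the bar the median. Medians run from 138 bases in Mbnl2 to 179 bases in Rbfox2, and the ranges overlap in all genes with more than 1 peak.

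Of 25 related genes, 8 held a peak and 3 held at least 10. The shares of all protein-coding genes were 18.9% and 4.83%. The related genes differ in span, and the share of genes with a peak in their length deciles ran from 5.94% (Esrp2) to 39.7% (Rbfox1 and others). Among 13 genes of the same families, Khdrbs1, which encodes the STAR protein Sam68, held 48 peaks, Nova2 6, Rbfox1 3 and Ptbp3 1. Khdrbs1 had 1.16 peaks per kb, next to Qk the highest of the STAR genes compared. Khdrbs2, Khdrbs3, Celf3, Celf4, Celf5, Celf6, Mbnl3, Rbfox3 and Ptbp1 had 0. Rbfox1, the longest gene of all these at 1528 kb, thus had 3 peaks, where its relative Rbfox2 had 33.

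Among 12 other splicing regulators, Hnrnpll, known for its role in lymphocytes, held 32 peaks (0.976 per kb), Elavl1 29 (0.719 per kb), Rbm24 2 and Rbm20 1. Elavl1 encodes HuR, the broadly expressed member of the Hu family. Its neuronal relatives Elavl2, Elavl3 and Elavl4 had 0, as did Srrm3 and Srrm4, which act on neuronal microexons, the epithelial regulators Esrp1 and Esrp2, and Rbm38. Of the 29 peaks of Elavl1, 3.45% lay in the first 50% of its span, lower than Qk at 34.9%. Expression of these genes was not measured, so the part of RNA level in these counts was not tested.

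For each member with at least 10 peaks, the protein-coding genes most alike in span and peak count were found by the distance between log10 values of both, over this 1 list. For Qk they were Hip1 (138.8 kb, 140 peaks, distance 0.121) and Spred2 (99.6 kb, 126 peaks, 0.139), which were farther than those of the other members. For Msi2 they were Gria4 (378.3 kb, 184 peaks) and Ebf1 (390.0 kb, 171 peaks). For Celf1 they were Pik3r3 (50 peaks) and Yap1 (47), for Celf2 Robo1 (20) and Sdk1 (22), and for Rbfox2 Tnrc6b (33) and Chl1 (34). For Ptbp2 they were Por and Sec63, with 11 each, and for Nova1 Sema6a and Ubr3, with 12 each.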

How the data were processed

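FLASH libraries were grouped by their titles, 2 with the DHX9 antibody and 2 with rabbit IgG. A single list of peaks over the 4 libraries was deposited, and its lines name PEAKachu as the caller. Its columns give chromosome, start, end and strand as 1-based positions, and the columns for score and frame are empty. The submitters' processing notes name Bowtie2 (version 2.2.6) and 2 builds, hg19 and mm10. The settings of the caller and the treatment of reads with several matches are not given in the sources used here. Sequencing depth is unknown, and no error between replicates could be computed.

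Positions were read as mm10 and set against a RefSeq gene table of GRCm38.p6, with 49980 genes on a chromosome. A peak belonged to each gene whose span held its midpoint. Strand and start sites came from the RefSeq start-site table of the same assembly, which held 8 of the 10 genes. The table of spans marks no exons, so introns and untranslated regions were not told apart. A run was a row of peaks on 1 strand with at most 1000 bases between neighbours. Length deciles were taken over the 21900 protein-coding genes. Counting was done in Python 3.11.15 with pandas 2.3.3 and checked on simulated peak lists. No test was made, since the design gives none for a single list.

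The members and the lists of related genes were chosen with earlier results of these data known. The rule for named genes took the 10 members, the 25 related genes, genes that share a peak with a member, genes next to Qk, and the 2 protein-coding genes nearest in span and peak count to each member with at least 10 peaks; 1 neighbour is not reported here. Progenitor genes, genes with peaks past their end, genes nearest to Msi1 and other overlapping genes were named after their values were seen. Nucleotide sequence of the peaks was not used here, except for the part of 1 peak that a start-site window covers.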

Additional observations from a re-analysis of the deposited data

How the results depend on the processing

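No paired analysis was possible because the deposited list pools replicates A and B of both groups, and for the same reason no replicate could be left out. When peaks shorter than the list median were left out, which drops about as many peaks as it keeps by construction, the members held 237 peaks in place of 472, Qk held 83 in place of 169, and 7 in place of 12 lay beside Qk. The median peak length in the members was then 200 bases and the median spacing 821 bases. Merging peaks within 50 bases of each other left 413 peaks in the members, 135 in Qk and 8 beside Qk. It gave a median length of 164 bases and a spacing of 586 bases, again by construction. With at least 3 peaks per gene, 5 related genes in place of 8 counted as having a peak. Taking all peaks between the first base of the rule and the Qk span, a choice made after seeing the data, gave 22 peaks beside Qk. The number of members with a peak was 7 or 8 in the alternatives run, and the majority-strand share was 100% in each. Counting by any overlap changed none of the values compared. The list gives no depth or signal, so a gene with 0 peaks may be below what could be detected.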
